A study of Homo sapiens with 12 samples.

Results

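Extracellular vesicles from M2 macrophages were compared with buffer alone in MV3 cells, an established human melanoma cell line, across all genes of the deposited RNA-seq table. The comparison took every library labelled M2 EV and every library labelled Ctrl, which is 6 of the 12 libraries of the study, with 3 per group. Of 28087 genes, 13113 passed the filter on low counts and were tested. M2 EV wells received 1e10 vesicle particles per well for 24 h. The vesicles had been spun out of the medium of THP-1 cells, a human monocytic leukaemia line, that had been polarized to M2 macrophages for 48 h. Ctrl wells received the same amount of PBS for 24 h, and both groups had first spent 3 h in RPMI 1640 with 1% vesicle-depleted serum in 12-well plates. Vesicles of M1 and M0 macrophages, given at the same particle number and for the same time, made up the M1 EV and M0 EV groups, with 3 libraries each. The polarizing agents are not named in the labels, and all macrophages came from 1 cell line and all recipient cells from another. Whether libraries of a group came from separate vesicle preparations or cultures is not stated, so p-values measure the spread between these libraries, which may be technical.

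Extracellular vesicles are membrane-bound particles that cells release and that can carry proteins, lipids and RNA to other cells. Macrophages described as M1 are pro-inflammatory and secrete cytokines that act through NF-kB, the transcription factor family that drives many chemokine genes. Macrophages described as M2 are linked to tissue repair, blood vessel growth and tolerance of tumours, and M0 denotes the unpolarized cell. MV3 is a highly invasive melanoma line, and melanoma cells of that kind often show little of the pigment programme run by MITF. The markers of that state were as follows. AXL, a receptor kinase of undifferentiated melanoma, averaged 1295 ± 8.12 counts-per-million units (CPM) in M2 EV and 1311 ± 13.2 CPM in Ctrl libraries (SD, n = 3 each). The pigment-cell genes TYR and S100B had no count in either group, and SOX10 had 2 summed counts in M2 EV and 0 in Ctrl libraries. MITF had 26 summed counts in M2 EV and 25 in Ctrl libraries, with means of 0.676 and 0.807 CPM. Summed counts are not scaled for depth, and the M2 EV group was the deeper one. The other markers were mixed. MLANA had 35 summed counts in M2 EV and 24 in Ctrl libraries (means of 0.907 and 0.768 CPM), PMEL 2 and 3, and NGFR 6 and 7. EGFR averaged 270.4 CPM in M2 EV and 261.7 CPM in Ctrl, and VIM 5041 and 5065 CPM. Of the melanocytic list, MC1R averaged 76.9 CPM in M2 EV and 71.5 CPM in Ctrl, and GPNMB 30.9 and 33.7 CPM.

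Of 13113 genes, 6 (0.0458%) were called different between M2 EV and Ctrl cells, 2 higher (0.0153%) and 4 lower (0.0305%), and the promoters of the 2 higher ones are shown here because those genes carry the rise. CXCL5 encodes a chemokine that attracts neutrophils through CXCR2, and ESM1 encodes endocan, a secreted proteoglycan of activated endothelium. The sequences are from RefSeq on GRCh38.p14 and run from 250 bases before to 50 bases after the transcription start, 5′ to 3′ on the gene's own strand. Capitals mark matches to a loose kappa B pattern, GGG and CC with any 5 bases between them, and to the TATA box letters TATAAA, both searched on both strands.
CXCL5, chr4:73998628-73998927, minus strand: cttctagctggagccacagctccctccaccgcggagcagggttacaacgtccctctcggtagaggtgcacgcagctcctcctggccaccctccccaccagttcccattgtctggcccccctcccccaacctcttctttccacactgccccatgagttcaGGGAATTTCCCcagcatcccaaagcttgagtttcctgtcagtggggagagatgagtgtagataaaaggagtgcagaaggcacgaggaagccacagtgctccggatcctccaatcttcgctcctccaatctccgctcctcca
ESM1, chr5:54985544-54985843, minus strand: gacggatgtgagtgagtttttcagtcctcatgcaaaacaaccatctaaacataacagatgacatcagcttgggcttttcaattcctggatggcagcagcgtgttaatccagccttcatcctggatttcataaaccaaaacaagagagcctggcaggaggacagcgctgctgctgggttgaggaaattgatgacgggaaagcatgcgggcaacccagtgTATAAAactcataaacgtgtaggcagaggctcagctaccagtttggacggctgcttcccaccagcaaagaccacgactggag
The CXCL5 promoter held a kappa B match on each strand, and these overlap: GGGAATTTCC beginning 91 bases before the start, and its neighbour GGAATTTCCC beginning 90 bases before it. The ESM1 promoter held no kappa B match and had TATAAA beginning 32 bases before the start. The loose kappa B pattern stood in 58% of 27305 RefSeq promoters of the same length and in 72.8% of the promoters of tested genes. TATAAA stood in 12% of all promoters and in 5.67% of those of tested genes.

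Of the 4 lower genes, SECTM1 and TNFRSF21 were matched to a promoter, and UNC5B and PKNOX2 are named only. SECTM1 encodes a membrane and secreted protein that binds CD7, and TNFRSF21 encodes death receptor 6. Their promoters are printed in the same way, with kappa B matches in capitals, to set the lower genes beside the higher ones.
SECTM1, chr17:82333717-82334016, minus strand: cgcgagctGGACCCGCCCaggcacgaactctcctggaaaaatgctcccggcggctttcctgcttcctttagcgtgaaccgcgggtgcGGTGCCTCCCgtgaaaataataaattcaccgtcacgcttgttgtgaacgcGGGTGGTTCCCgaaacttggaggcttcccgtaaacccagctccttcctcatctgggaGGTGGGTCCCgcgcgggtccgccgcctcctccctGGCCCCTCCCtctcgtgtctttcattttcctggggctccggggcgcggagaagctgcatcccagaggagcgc
TNFRSF21, chr6:47309856-47310155, minus strand: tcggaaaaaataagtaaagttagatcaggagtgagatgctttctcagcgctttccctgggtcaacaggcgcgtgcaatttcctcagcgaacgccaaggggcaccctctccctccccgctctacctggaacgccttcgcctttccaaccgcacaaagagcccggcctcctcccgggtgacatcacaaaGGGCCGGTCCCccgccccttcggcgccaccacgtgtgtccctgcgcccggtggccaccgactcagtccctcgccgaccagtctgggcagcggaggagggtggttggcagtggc
SECTM1 had 6 kappa B matches and TNFRSF21 had 2, so the pattern occurred in promoters of genes of both directions. The AP-1 letters TGANTCA were in none of these 4 windows. They are rare in any case, standing in 7.76% of all promoters and in 4.6% of those of tested genes.

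The libraries held 10207775, 14379483 and 13125557 gene counts in M2 EV and 9946633, 9694683 and 11250639 in Ctrl, so the M2 EV group was the deeper one. In a principal component analysis of all 12 libraries the first component, with 43.2% of the variance, set the M1 EV libraries (21.9 to 23.8) apart from the rest. On it the M2 EV libraries lay between -6.15 and -6.01, the M0 EV libraries between -7.49 and -6.50, and the Ctrl libraries between -9.86 and -9.11. Replicate 1 of M0 EV stood apart from its own group: its counts differed from those of the other M0 EV libraries with a chi-square of 1.95 and 2.24 per degree of freedom, against 1.03 between those 2. This library enters the shared estimate of spread behind every test here, and counts are given with and without it. Its header in the deposited counts reads MV where the others read MV3, so it was matched by its group and replicate labels.

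Vesicles of M2 macrophages were followed by few called changes, all small. CXCL5 and ESM1 rose by 29.6% and 28.2%, and UNC5B, PKNOX2, SECTM1 and TNFRSF21 fell by 25.6%, 20.9%, 17.1% and 10.9%. A gene was called where the adjusted p of edgeR's quasi-likelihood test was under 0.05. At an unadjusted p under 0.05 there were 814 genes, 6.21% of those tested, where 656 would be reached by p-values spread evenly. The same fit called 3683 genes, 28.1%, in M1 EV against Ctrl.

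CXCL5 (NM_002994, chr4:73995642-73998677, hg38) stood at 37.6, 35.7 and 37.1 CPM in M2 EV libraries, against 28.8, 26.3 and 29.7 CPM in Ctrl libraries. Every M2 EV library lay above every Ctrl library. The means were 36.8 ± 0.991 CPM in M2 EV and 28.2 ± 1.75 CPM in Ctrl (SD, n = 3 each), from 256 to 514 counts per library. The log2 fold change was 0.37 with a standard error of 0.063, a 95% interval of 0.25 to 0.50 and an edgeR adjusted p of 0.0101. Leaving out Ctrl replicate 1 gave an adjusted p of 0.0773, M2 EV replicate 1 gave 0.0514 and M2 EV replicate 3 gave 0.065, so that the call was lost in each.

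ESM1 (NM_007036, chr5:54977867-54985593) stood at 30.3, 29.3 and 31.8 CPM in M2 EV libraries, against 23.0, 23.2 and 24.9 CPM in Ctrl libraries. The groups did not overlap, and the lowest M2 EV library was above the highest Ctrl library. The log2 fold change was 0.36 with a standard error of 0.072, a 95% interval of 0.21 to 0.51 and an adjusted p of 0.0453. That adjusted p lies just under the threshold, and leaving out 1 library ended the call in 7 cases. It was 0.466, 0.0882 and 0.226 without Ctrl replicate 1, 2 and 3, 0.106, 0.179 and 0.231 without M2 EV replicate 1, 2 and 3, and 0.0548 without M0 EV replicate 2. DESeq2 gave 0.144.

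UNC5B (NM_170744, chr10:71212570-71302864) encodes a receptor for netrins that mediates repulsive guidance of axons and vessel sprouts. Its level was 15.3, 14.6 and 15.5 CPM in M2 EV libraries, against 21.6, 18.8 and 20.4 CPM in Ctrl libraries, with every M2 EV library below every Ctrl library. The log2 fold change was -0.43 with a standard error of 0.083, a 95% interval of -0.59 to -0.26 and an adjusted p of 0.0354. This is the largest fold change among the called genes. DESeq2 gave an adjusted p of 0.437, and the values were 0.466 and 0.243 without Ctrl replicate 1 and 3 and 0.0921, 0.571 and 0.12 without M2 EV replicate 1, 2 and 3.

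SECTM1 (NM_003004, chr17:82321024-82333959) stood at 76.6, 68.0 and 74.9 CPM in M2 EV libraries, against 87.8, 80.8 and 94.3 CPM in Ctrl libraries. Interferon-gamma induces this gene in several cell types. The highest M2 EV library was below the lowest Ctrl library, and the log2 fold change was -0.27 with a standard error of 0.05, a 95% interval of -0.37 to -0.17 and an adjusted p of 0.024. DESeq2 gave 0.111. The adjusted p was 0.206 and 0.342 without Ctrl replicate 1 and 3 and 0.6 and 0.065 without M2 EV replicate 2 and 3.

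TNFRSF21 (NM_014452, chr6:47231532-47309905), which can trigger apoptosis, was the most abundant of the called genes and had the smallest change. Its level was 253.1, 244.3 and 254.8 CPM in M2 EV libraries, against 283.5, 276.5 and 283.6 CPM in Ctrl libraries, with no overlap. The log2 fold change was -0.17 with a standard error of 0.034, a 95% interval of -0.23 to -0.10 and an adjusted p of 0.0453. It lost the call without Ctrl replicate 1 or 3 (0.466 and 0.307), without M0 EV replicate 2 (0.0548), without M2 EV replicate 1, 2 or 3 (0.106, 0.607 and 0.12), with upper-quartile scaling (0.0633) and in DESeq2 (0.0815).

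PKNOX2 (NM_022062, chr11:125164751-125433389) encodes a homeobox transcription factor of the TALE class. It stood at 21.8, 19.9 and 19.9 CPM in M2 EV libraries, against 26.6, 23.4 and 27.2 CPM in Ctrl libraries, and the groups did not overlap. The log2 fold change was -0.34 with a standard error of 0.069, a 95% interval of -0.48 to -0.20 and an adjusted p of 0.0453. The call was kept in 13 of 24 alternatives, the fewest of the 6 genes, and CXCL5 kept it in 21. The losses came without Ctrl replicate 1 or 3 (0.466 and 0.438), M0 EV replicate 2 or 3 (0.0548 and 0.0516), M1 EV replicate 2 (0.0534), or M2 EV replicate 1, 2 or 3 (0.0665, 0.6 and 0.226), with upper-quartile scaling (0.0633), limma-voom (0.0639) and DESeq2 (0.437).

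**Figure D1:**
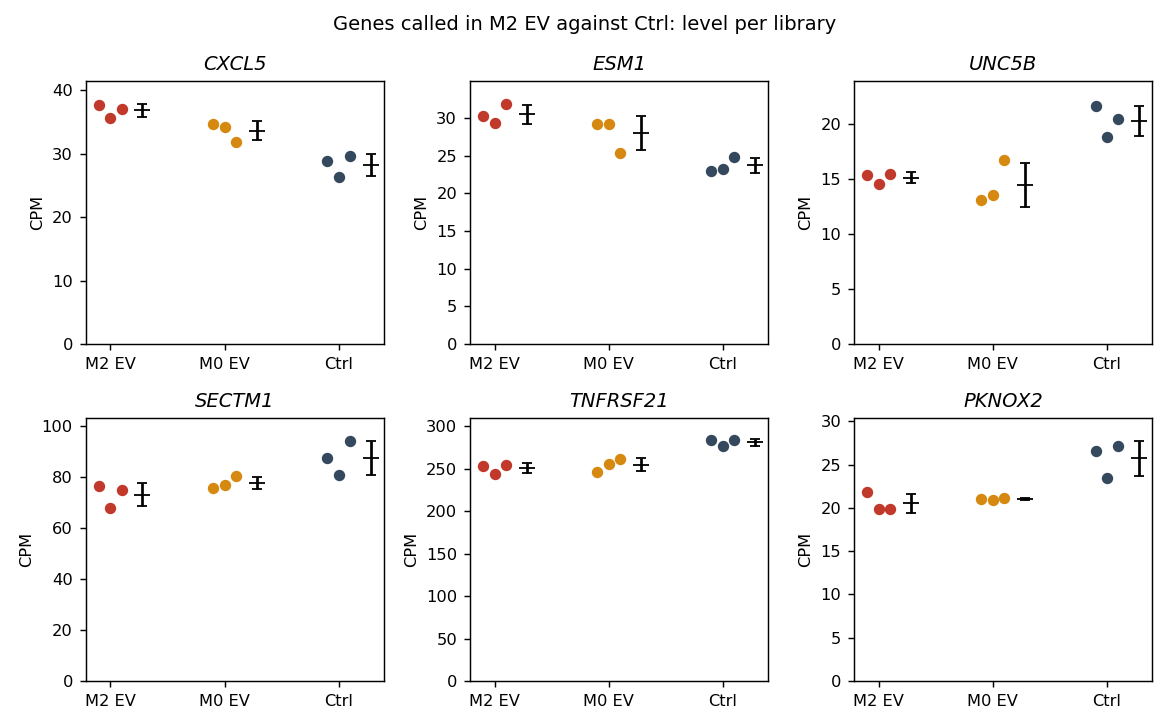
Level in CPM (y axis, starting at 0) of the 6 called genes in each M2 EV, M0 EV and Ctrl library (points), with the group mean and SD as bars (n = 3). CXCL5 and ESM1 lie higher in M2 EV than in Ctrl libraries, the other 4 genes lie lower, and no M2 EV point overlaps a Ctrl point.

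The M2 EV libraries were also set against the other vesicle groups, which asks whether the polarization of the donor macrophage mattered. Against M0 EV no gene was called (0% of 13113; the smallest adjusted p in edgeR was 0.0725 and 447 genes, 3.41%, had an unadjusted p under 0.05), and DESeq2 and limma-voom called 0. Without M0 EV replicate 1, 36 genes were called, all lower in M2 EV, of which 24 have a transcript over 12000 bases. Against M1 EV, 3229 genes (24.6%) were called, 1580 (12%) higher and 1649 (12.6%) lower in M2 EV. The levels of the 6 genes under the other vesicle types follow. The comparisons of each vesicle type with Ctrl share the same Ctrl libraries.

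CXCL5 stood at 349.8, 331.5 and 346.9 CPM in M1 EV libraries and at 34.7, 34.2 and 31.9 CPM in M0 EV libraries. All M1 EV values lay far above the 35.7 to 37.6 CPM of M2 EV, and the log2 fold change of M2 EV over M1 EV was -3.22 with an adjusted p of 3.05e-38. Against M0 EV it was 0.13, with a 95% interval of 0.01 to 0.25 and an adjusted p near 1. ESM1 stood at 91.9, 83.0 and 92.4 CPM in M1 EV and at 29.2, 29.2 and 25.3 CPM in M0 EV libraries. M2 EV was lower than M1 EV by a log2 fold change of -1.55 (adjusted p 9.04e-24), and M2 EV over M0 EV was 0.12, with an interval of -0.01 to 0.26.

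UNC5B had 6.61, 6.93 and 7.65 CPM in M1 EV and 13.1, 13.5 and 16.7 CPM in M0 EV libraries. It was higher in M2 EV than in M1 EV, with a log2 fold change of 1.09 and an adjusted p of 2.24e-10, and M2 EV over M0 EV was 0.06 (interval -0.12 to 0.24). In M0 EV against Ctrl, where 0.0153% of genes were called, it was called as well, with a log2 fold change of -0.49 and an adjusted p of 0.0199. SECTM1 had 43.7, 44.8 and 45.1 CPM in M1 EV and 76.0, 77.1 and 80.4 CPM in M0 EV libraries, and TNFRSF21 had 186.5, 194.5 and 190.8 CPM in M1 EV and 246.7, 255.8 and 261.9 CPM in M0 EV libraries. Both were higher in M2 EV than in M1 EV, with log2 fold changes of 0.71 and 0.39 and adjusted p of 6.31e-13 and 1.36e-11. PKNOX2 had 20.8, 21.1 and 21.8 CPM in M1 EV and 21.0, 20.9 and 21.2 CPM in M0 EV libraries, close to its 19.9 to 21.8 CPM in M2 EV. Its difference between M2 EV and M1 EV was -0.05 on the log2 scale with an adjusted p of 0.659, and it was the only called gene for which those groups were not separated by the test.

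The next genes by p did not pass the test and are given as values. On the higher side the smallest p belonged to LINC01436, a long noncoding RNA, which is named after its values were seen because noncoding loci are outside the naming rule. It had 4.49, 5.28 and 4.11 CPM in M2 EV, against 2.70, 2.67 and 3.02 CPM in Ctrl libraries, with a log2 fold change of 0.73, an interval of 0.40 to 1.06 and an adjusted p of 0.116. After it came COL6A2, a chain of collagen VI, and NUDC, which works with dynein. DST, given below with the long transcripts, was next, and then TMEM158, a gene induced by RAS signalling. NUDC had a log2 fold change of 0.16 (adjusted p 0.116) and TMEM158 of 0.14 (adjusted p 0.117). COL6A2 averaged 1173 ± 47.0 CPM in M2 EV and 1070 ± 30.5 CPM in Ctrl (SD, n = 3 each), with a log2 fold change of 0.13 and an adjusted p of 0.116. CNTNAP1, a membrane protein of the neurexin family, averaged 40.0 ± 0.612 CPM in M2 EV and 33.99 ± 0.446 CPM in Ctrl (log2 fold change 0.23, adjusted p 0.13). SLIT2, a ligand of ROBO receptors, averaged 87.5 ± 3.84 CPM in M2 EV and 77.3 ± 0.58 CPM in Ctrl (log2 fold change 0.18, adjusted p 0.13), and TFRC, the receptor that takes up iron-loaded transferrin, 599.5 ± 22.2 CPM in M2 EV and 551.5 ± 11.3 CPM in Ctrl (0.12, adjusted p 0.132). On the lower side was ZNF703, a transcriptional repressor, with 102.9, 96.8 and 101.1 CPM in M2 EV, against 116.4, 115.4 and 115.1 CPM in Ctrl libraries. Its log2 fold change was -0.21 and its adjusted p, 0.0875, was the smallest outside the called genes. KLF4, a zinc-finger transcription factor, had 33.2, 30.8 and 30.9 CPM in M2 EV, against 36.3, 40.0 and 36.2 CPM in Ctrl libraries (log2 fold change -0.25, adjusted p 0.116). These genes were picked among those whose M2 EV and Ctrl libraries do not overlap, which holds for 1540 of all tested genes (11.7%).

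The remaining names on the lower side were gamma-protocadherins, adhesion molecules of neurons and other cells whose genes lie in 1 cluster on chromosome 5 and share their last exons. PCDHGB2 had 105.1, 103.7 and 103.0 CPM in M2 EV, against 119.8, 110.9 and 120.7 CPM in Ctrl libraries, with a log2 fold change of -0.17 and an adjusted p of 0.116. All 22 tested members had fold changes between -0.17 and -0.14 and adjusted p between 0.116 and 0.204. Their mean levels over the 6 libraries ran from 109 CPM, near which most members lay, to 145.4 CPM for PCDHGB5 and 161.4 CPM for PCDHGC3. Reads from the shared exons cannot be assigned to 1 member, so the 22 fold changes are not independent observations. They filled 19 of the 25 places after the called genes when ordered by p, and 21 of the 37 lower genes called when only M2 EV and Ctrl libraries were fitted. Leaving out 128 genes that share exons in this way, read-through genes included, left the same 6 calls among 12985 genes.

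Genes with very long transcripts tended to lie above 0. DST, which encodes a giant linker of intermediate filaments, had 335.9, 358.8 and 356.8 CPM in M2 EV, against 299.1, 317.9 and 273.3 CPM in Ctrl libraries (log2 fold change 0.24, adjusted p 0.116). SYNE2, a giant protein of the nuclear envelope, had 170.2, 189.4 and 179.3 CPM in M2 EV, against 146.4, 157.4 and 128.7 CPM in Ctrl libraries (0.32, adjusted p 0.178). Of 202 tested genes with a transcript over 12000 bases, 148 had a fold change above 0 (6640 of all 13113 did), with a median of 0.053 on the log2 scale, and 31 (15.3%) were higher at an unadjusted p under 0.05, against 3.02% of all tested genes. The level of this length class also varied within groups. Its median deviation from the mean over all libraries was 0.0028, 0.037 and 0.026 in M2 EV, -0.072, 0.12 and 0.14 in M0 EV, and -0.02, 0.019 and -0.079 in Ctrl libraries, on the log2(CPM + 1) scale. These transcripts made up 15 of the 25 higher calls when only M2 EV and Ctrl libraries were fitted, and 12 of the 18 higher calls without M0 EV replicate 1. None of the 6 called genes is in that class, and all 6 stayed called when a trend with transcript length was removed from each library.

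**Figure D2:**
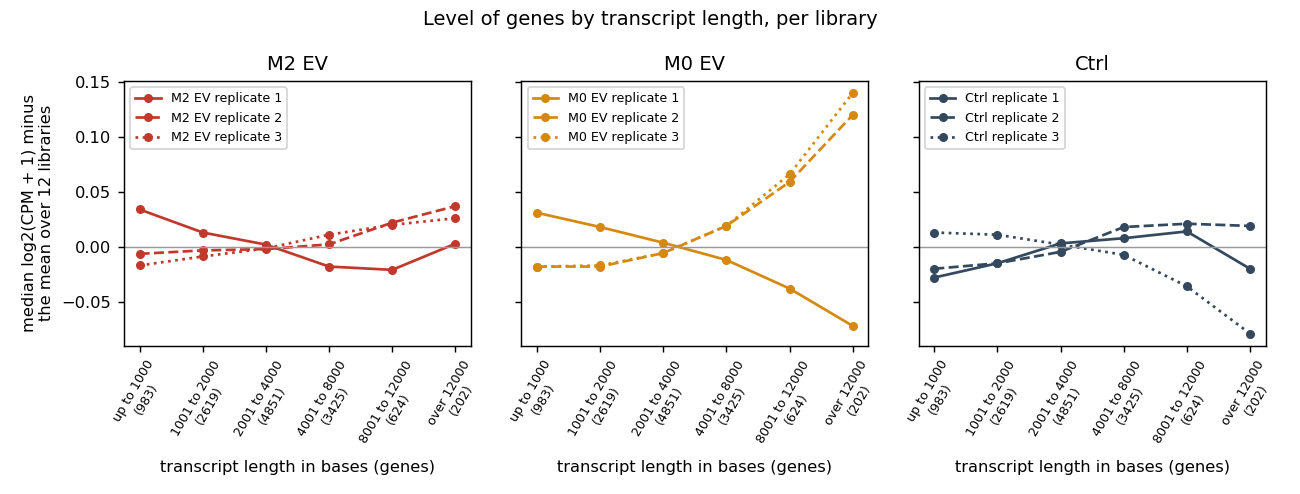
Median deviation of log2(CPM + 1) from the mean over 12 libraries (y axis) for tested genes binned by transcript length in bases (x axis, number of genes in brackets), 1 line per library of M2 EV, M0 EV and Ctrl. The class over 12000 bases reaches 0.12 and 0.14 in M0 EV replicates 2 and 3, lies at -0.072 in M0 EV replicate 1, and spans -0.079 to 0.019 in Ctrl.

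**Figure D3:**
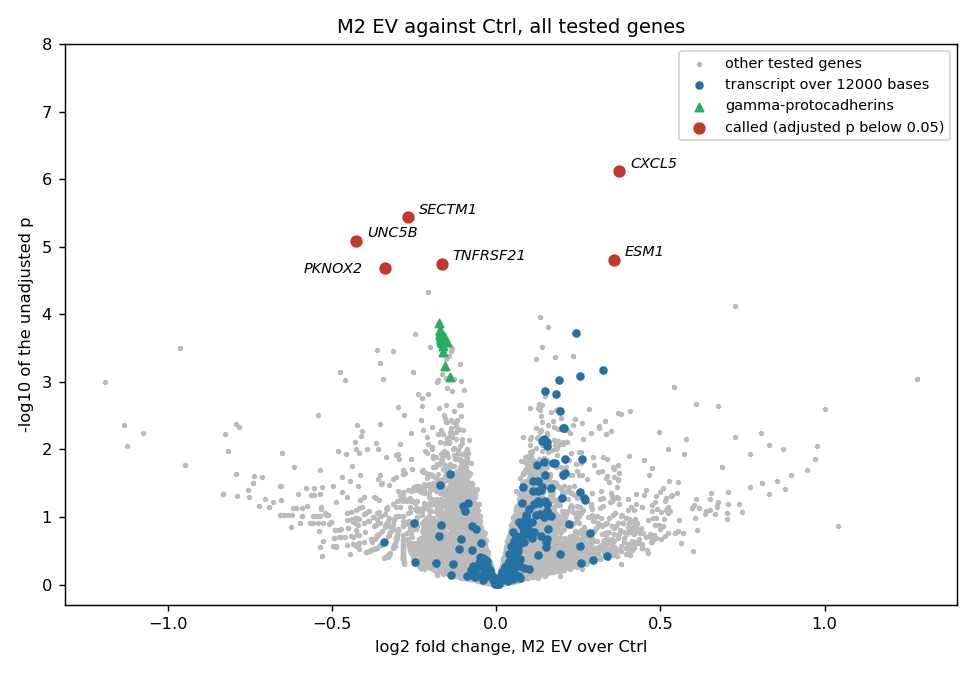
Log2 fold change of M2 EV over Ctrl (x axis) against -log10 of the unadjusted p (y axis) for the 13113 tested genes. The 6 called genes (red) stand above the rest, gamma-protocadherins (green) form 1 tight group on the lower side, and transcripts over 12000 bases (blue) lie mostly to the right of 0.

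How many genes were called depended on which libraries entered the fit. With M2 EV and Ctrl libraries alone 62 genes were called, 25 higher and 37 lower, and without M0 EV replicate 1 there were 48, 18 higher and 30 lower. All 48 were among the 62, and both sets held the 6 genes. Leaving out Ctrl replicate 1 or M2 EV replicate 3 left 0 calls in edgeR, with 722 and 879 genes at an unadjusted p under 0.05. Without Ctrl replicate 2 there were 24 calls, without Ctrl replicate 3, M2 EV replicate 1 or M2 EV replicate 2 there was 1, and without M0 EV replicate 2 there were 3.

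**Figure D4:**
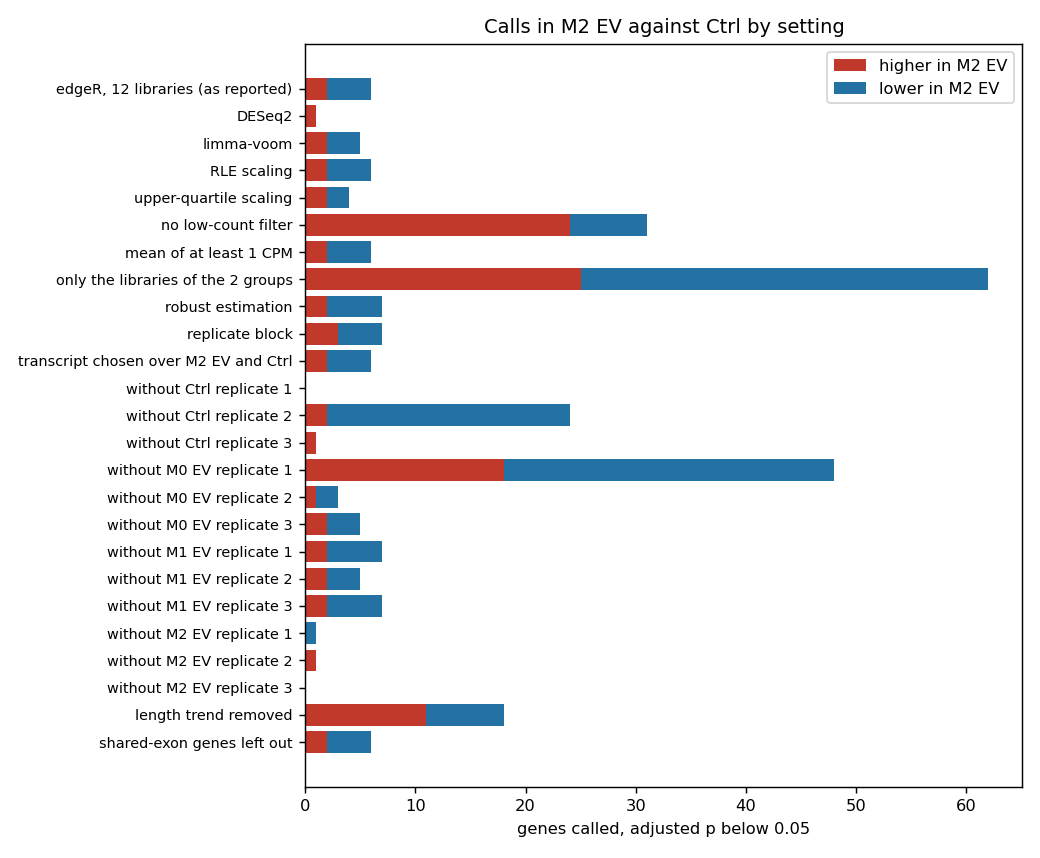
Number of genes called in M2 EV against Ctrl (x axis, adjusted p under 0.05) under each way of processing, split into genes higher (red) and lower (blue) in M2 EV. The count is 6 as reported and lies between 0 and 62 elsewhere.

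Gene lists were read by their counts and medians, beside 6640 tested genes above 0, 6473 below 0 and a median of 0.0013 on the log2 scale over all genes. The lists were drawn up with the called genes known, so a list that holds a called gene gives no independent evidence of its direction. For counts at an unadjusted p under 0.05 the shares over all genes are 3.02% higher and 3.19% lower.

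Among ligands of inflammation, 7 of 21 chemokine genes were tested, and 1 of them, CXCL5, was called. Fold changes were above 0 in 6 of 7, with a median of 0.15. CXCL8, which recruits neutrophils, had 3.22, 3.05 and 3.20 CPM in M2 EV, against 1.70, 2.06 and 2.13 CPM in Ctrl libraries. Every M2 EV library lay above every Ctrl library, but the log2 fold change of 0.68 had an interval of 0.26 to 1.09 and an adjusted p of 0.365 at this low level. CXCL1, another ligand of CXCR2 with close paralogs, had 16.6, 14.9 and 15.4 CPM in M2 EV, against 13.2, 11.3 and 13.5 CPM in Ctrl libraries (0.29, adjusted p 0.494). In M1 EV libraries the averages were 106.9 ± 4.49 CPM for CXCL8 and 207.0 ± 12.7 CPM for CXCL1 (SD, n = 3 each). The median of the chemokine list was 3.46 in M1 EV against Ctrl and 0.11 in M0 EV against Ctrl.

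Of 32 tested NF-kB response genes none was called, 25 lay above 0 and the median was 0.039. RELB, an NF-kB subunit, averaged 18.2 ± 0.708 CPM in M2 EV and 14.9 ± 1.56 CPM in Ctrl (0.28, adjusted p 0.374), and NFKBIA, which encodes the inhibitor that closes the feedback loop, had a log2 fold change of 0.20 (adjusted p 0.488). ICAM1, an adhesion molecule for leukocytes, averaged 12.2 ± 1.14 CPM in M2 EV and 10.6 ± 0.103 CPM in Ctrl (0.21, adjusted p 0.786). In this list, 7 members were higher and 1, IRF1, was lower at an unadjusted p under 0.05. The list's median was 0.61 in M1 EV against Ctrl, where 26 members were called higher, as were 14.3% of all tested genes. In M0 EV against Ctrl the median was 0.055. Of 24 tested cytokines and growth factors none was called, and IL6 and IL1B had adjusted p of 0.974 and 0.989.

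Genes of vessels and guidance held called members in both directions. Among 24 tested angiogenic factors 1, ESM1, rose, and the median was 0.021. ADM, the vasodilator adrenomedullin, had 102.1, 98.8 and 97.8 CPM in M2 EV, against 109.2, 107.9 and 114.0 CPM in Ctrl libraries, a log2 fold change of -0.15 with an adjusted p of 0.204. VEGFA, the main endothelial growth factor, had a fold change of 0.02 with an interval of -0.05 to 0.09. Of 26 tested guidance ligands and receptors 1, UNC5B, fell, and 11 lay above and 15 below 0. NTN4, a netrin, had a log2 fold change of -0.10 (adjusted p 0.552). Among 26 tested genes of death receptors and apoptosis 1, TNFRSF21, fell, and the list divided evenly, 13 above and 13 below 0.

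The TALE homeobox genes and their partners were the list with the lowest median, -0.096, with 10 of 12 members below 0 and 1, PKNOX2, called. TGIF1, a transcriptional repressor, had a log2 fold change of -0.14 (adjusted p 0.78). No member was called higher, and the median in M0 EV against Ctrl was -0.0031.

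Matrix genes showed no call. Of 28 tested collagens and matrix proteins 13 lay above and 15 below 0, with a median of -0.006. At an unadjusted p under 0.05, 5 of the 28 were higher and 1 was lower, against 3.02% and 3.19% of all tested genes. SPARC, a matrix protein of invasive melanoma, averaged 1718 ± 34.2 CPM in M2 EV and 1853 ± 54.7 CPM in Ctrl (-0.11, adjusted p 0.152), while COL6A1, the partner chain of COL6A2, had a log2 fold change of 0.10 (adjusted p 0.374). Of 29 tested matrix proteases and inhibitors none was called. MMP2, which cleaves collagen IV, had 334.3, 320.6 and 346.3 CPM in M2 EV, against 364.2, 360.2 and 376.5 CPM in Ctrl libraries (-0.14, adjusted p 0.117). TIMP2, its inhibitor and activation partner, had -0.11 (adjusted p 0.207), and MMP14, the membrane protease that activates MMP2, had 0.01 with an interval of -0.06 to 0.07. MMP2 averaged 416.0 ± 13.3 CPM in M1 EV libraries (SD, n = 3), on the other side of the Ctrl level.

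In genes of the undifferentiated and invasive melanoma state, 1 of 29 tested members, TNFRSF21, was called, lower, and the median was -0.0093. At an unadjusted p under 0.05, 1 member was higher and 4 were lower. AXL had a log2 fold change of -0.02 with an interval of -0.07 to 0.04. In the melanocytic list 9 of 28 genes were tested, none was called, and the median was 0.017. None of 22 TGF-beta targets, 22 YAP and TEAD targets, 23 ERK output genes or 16 immediate early genes was called, with medians between -0.024 and 0.015. Among the ERK output genes 0 were higher and 4 were lower at an unadjusted p under 0.05. EGR1, an immediate early transcription factor, averaged 5.40 ± 0.434 CPM in M2 EV and 7.38 ± 0.496 CPM in Ctrl (-0.46, adjusted p 0.204), and DUSP4, a phosphatase that dampens ERK, had -0.15 (adjusted p 0.242).

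The list of interferon-gamma and class I presentation genes had 33 tested members, of which 1, SECTM1, was called, lower, although 21 lay above 0. IRF1, the main transcription factor of that response, had 57.2, 58.2 and 59.7 CPM in M2 EV, against 65.4, 63.1 and 64.5 CPM in Ctrl libraries (-0.14, adjusted p 0.48). PSMB8, an immunoproteasome subunit, had 0.19 (adjusted p 0.63). Of 40 tested type I interferon response genes none was called, and IFIT1 and IFIT2 had log2 fold changes of -0.22 and -0.23 with adjusted p of 0.782 and 0.72.

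The cell cycle lists were nearly all on one side of 0 by small amounts. Of 30 G1/S genes 29 lay above 0 with a median of 0.043, and of 30 G2/M genes 28 did with a median of 0.030, but none was called. At an unadjusted p under 0.05 there were 6 and 4 higher and none lower in either. TYMS, which makes thymidylate for DNA synthesis, had 229.3, 228.9 and 232.7 CPM in M2 EV, against 215.2, 214.9 and 220.1 CPM in Ctrl libraries (0.09, adjusted p 0.646). MKI67, the proliferation marker Ki-67, averaged 498.2 ± 13.6 CPM in M2 EV and 450.6 ± 36.8 CPM in Ctrl (0.15, adjusted p 0.533), and its transcript is over 12000 bases. No G1/S member has a transcript over 8000 bases, and 3 G2/M members do. Those 3, CENPF, CENPE and MKI67, are among the 4 G2/M genes counted as higher. The medians in M0 EV against Ctrl were 0.042 and 0.038.

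**Figure D5:**
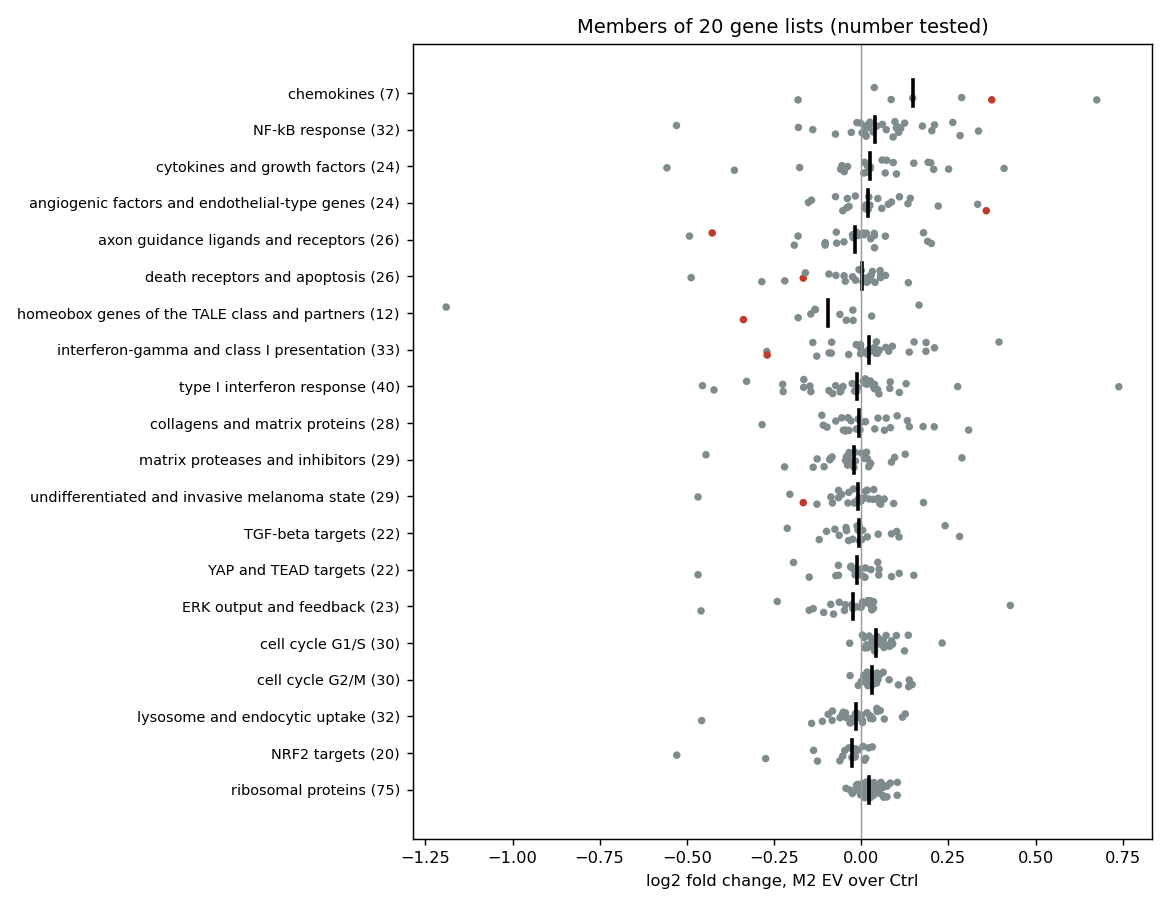
Log2 fold change of M2 EV over Ctrl (x axis) for the tested members of 20 gene lists (rows, number tested in brackets), with called genes in red and the list median as a black bar. Most members lie within 0.25 of 0, the chemokine median is 0.15, and the median of the TALE homeobox list is -0.096.

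Stress, metabolic and uptake genes gave no call. The 20 NRF2 targets tested had 15 members below 0 and a median of -0.026, with -0.0295 in M0 EV against Ctrl. NQO1, a quinone reductase, averaged 416.5 ± 7.94 CPM in M2 EV and 457.8 ± 6.36 CPM in Ctrl (-0.14, adjusted p 0.117). Of 32 genes of lysosome and endocytic uptake, 1 was higher and 6 were lower at an unadjusted p under 0.05. The median of this list was -0.0147, with -0.0171 in M0 EV against Ctrl. CD63, a tetraspanin of late endosomes that is also a vesicle marker, had 238.8, 250.9 and 242.5 CPM in M2 EV, against 274.9, 264.7 and 269.2 CPM in Ctrl libraries (-0.14, adjusted p 0.13), and CAV1, the coat protein of caveolae, had -0.08 (adjusted p 0.537). The higher one, CTSL, a lysosomal cysteine protease, averaged 131.9 ± 2.32 CPM in M2 EV and 121.0 ± 1.55 CPM in Ctrl (0.13, adjusted p 0.374). Among 18 p53 targets TP53INP1 had -0.34 and CDKN1A had 0.23, with adjusted p of 0.204 and 0.845.

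None of 27 hypoxia and glycolysis genes, 24 cholesterol synthesis genes, 19 genes of fatty acids and lipid storage, 26 stress response genes, 16 heat shock genes or 9 genes of metal response was called. Their medians lay between -0.017 and 0.033. BNIP3, a mitophagy receptor induced by low oxygen, had a log2 fold change of 0.13 (adjusted p 0.374), and DDIT4, an inhibitor of mTORC1, had -0.18 (adjusted p 0.374). Of 75 ribosomal protein genes 65 lay above 0, with a median of 0.022 and no call. Their median was 0.0193 in M0 EV against Ctrl.

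Markers of macrophages were read because vesicles could bring RNA of the donor cell. Of 43 markers 18 had no count in any library and 6 were tested, none of them called. CD163 and TYROBP had no count in M2 EV or Ctrl, PTPRC had none in either, SPI1 had 1 summed count in M2 EV and 0 in Ctrl, and CD14 had 5 in M2 EV and 7 in Ctrl. MRC1 had 6 summed counts in M2 EV and 5 in Ctrl, and CSF1R had 15 in M2 EV and 10 in Ctrl. A count of 0 over a group allows up to 0.0795 CPM in M2 EV and 0.0971 CPM in Ctrl (3 counts, counting error only). The summed level of the list was 96.3 to 99.7 CPM in M2 EV, against 88.2 to 94.5 CPM in Ctrl libraries, most of it from CD68, a lysosomal protein that many cells make, with 59.9 ± 1.17 CPM in M2 EV and 56.7 ± 3.68 CPM in Ctrl (0.08, adjusted p 0.905). The median of the 6 tested markers was 0.18 on the log2 scale, the highest of the lists, with 5 above 0. Their median in M0 EV against Ctrl was 0.0957. VCAN, a matrix proteoglycan that also stands in the matrix list, averaged 19.5 ± 0.194 CPM in M2 EV and 16.8 ± 1.07 CPM in Ctrl (0.21, adjusted p 0.658). It was the only marker with an unadjusted p under 0.05, and its transcript is over 12000 bases, the class that tended to lie above 0. APOC1, an apolipoprotein, averaged 1.88 ± 0.223 CPM in M2 EV and 1.48 ± 0.174 CPM in Ctrl (0.34, adjusted p 0.962). The part of these markers in the called genes was not tested. Of 25 genes of M2 macrophages 16 had no count in any library, and none of the 4 tested was called. None of 6 tested markers of fibroblasts, epithelium, endothelium and lymphocytes was called. Of all 28087 genes, 36 had counts in every M2 EV library and none in Ctrl, with at most 11 summed counts. The reverse pattern was seen in 20, with at most 8. These counts are not scaled for depth, and the M2 EV group was the deeper one.

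The standard errors of the fit set narrow limits on larger responses for most genes. By them the 95% interval of the fold change lay within 2-fold in either direction for 12843 genes (97.9%), and within 1.5-fold for 11724 (89.4%). For genes with few counts such an interval can be narrower than the test implies, so these shares may be too high. CDKN1A had a log2 interval of 0.003 to 0.454, which leaves out 0, but an unadjusted edgeR p of 0.0673. Of the 9663 genes with a mean of at least 10 CPM, every interval lay within 2-fold, and 9662 lay within 1.5-fold. Fold changes of 2 or more were estimated for 3 genes higher and 4 lower in M2 EV, none of them called, while in M1 EV against Ctrl there were 76 higher and 74 lower.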

How the data were processed

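Poly(A) RNA of MV3 cells was sequenced in 12 strand-specific libraries. The authors deposited expected counts for 70507 RefSeq transcripts, in steps of 0.5 (51.3% of values above 0 are fractional). The submitters' processing notes name STAR 2.6.1b, HOMER 4.10 and hg38, and neither the role of each tool nor the strand setting of the counting is given in the sources used here. Without that setting, overlapping and antisense genes cannot be told apart.

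Transcripts were named by RefSeq GRCh38.p14 (69824) or GENCODE 29 (333), and 350 had no name and stayed out (0.0608% to 0.0643% of counts). Each gene was represented by the transcript with the highest sum over 12 libraries, rounded to whole numbers, and 12543 of 28087 genes had more than 1. CPM values used the summed counts of the tested genes in each library, scaled by its TMM factor. edgeR 4.0.16 (R 4.3.3, filterByExpr, TMM factors 0.993 to 1.01, quasi-likelihood test, 8 residual degrees of freedom) fitted all 12 libraries with group as the only term, and p-values were adjusted by Benjamini-Hochberg over 13113 genes. The biological coefficient of variation was 2.59%. The fit was tested on simulated data.

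DESeq2 1.42.0, limma-voom (limma 3.58.1), other scalings, filters and library sets were tried. Transcript lengths came from GENCODE 29 for 96.9% of tested genes. Members, lists and tests were chosen with earlier results of these data known. Named were all called genes, the 10 genes with the smallest p on each side among uncalled genes with separate groups and at least 1 CPM (noncoding, antisense and unnamed loci left out), up to 3 members with the smallest p per list, a fixed set of genes, and the markers. One gene that the rule picks is not reported here. SPI1, PTPRC and similar untested markers are given as counts.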

Additional observations from a re-analysis of the deposited data

How the results depend on the processing

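For M2 EV against Ctrl, where 6 genes were called, DESeq2 called 1, the fit without a low-count filter 31, the fit of only the M2 EV and Ctrl libraries 62, and the fit with the length trend removed, an alternative chosen after seeing the data, 18. All 6 genes were among the 31, the 62 and the 18. Leaving out 1 library at a time gave 0 to 48 calls. For M2 EV against M0 EV, with 0 calls, there were 12 without the filter, 2 with robust estimation, and 0 to 36 when 1 library was left out. For M2 EV against M1 EV, with 3229 calls, DESeq2 called 2098, and leaving out 1 library gave 2550 to 3383. The cause of these differences was not tested. Over 24 alternatives each, the called genes kept their call in 103 cases and lost it in 41, and no direction turned. Genes next in order were called in 65 cases and not in 407. The list without shared-exon genes, also chosen after seeing the data, left 6 calls.

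Replicate numbers did not pair the samples: deviations of same-numbered M2 EV and Ctrl libraries correlated at -0.009, -0.006 and -0.032 over genes, and no M2 EV library correlated best with its own number. With a replicate block 7 genes were called against Ctrl, the same 6 and DST, 1 against M0 EV and 3318 against M1 EV.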
